A study of Homo sapiens with 2 samples.

Results

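The genes described here encode the semaphorins, netrins and Slits, which are guidance ligands, and the plexins, neuropilins, UNC5 and Robo proteins, which are their receptors. They were taken by gene name, and the name rule itself uses no measured value. The deposited table listed 35 such genes among 15603, of which 19 were ligands and 16 were receptors. Another 13 protein-coding genes with such names in GENCODE release 29, among them SEMA3E, SLIT1, ROBO2 and UNC5D, were not analysed here. RNA was sequenced from 2 cultures of A172, an established human glioblastoma cell line. The resistant library came from a clone, A172-r#6, that had been selected with temozolomide (TMZ), an alkylating drug used against this tumour, and was labelled as grown with the drug. The parental library came from A172 cells labelled as grown without it. There was 1 library per group and 1 clone, so clone, selection and drug exposure cannot be told apart, and no difference below has a replicate check or a test.

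Guidance ligands were first described as cues that attract or repel growing axons, and the same proteins act on migrating cells, blood vessels and tumour cells. Semaphorins signal through plexins, and most secreted class 3 semaphorins need a neuropilin as the binding subunit. Netrin-1 attracts through DCC and repels through UNC5 receptors, which are also known as dependence receptors because they can promote cell death when no netrin is bound. Slits bind Robo receptors, and in glioma cells several of these pathways have been studied for their part in invasion.

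Levels are given in FPKM, which are fragment numbers divided by transcript length and library depth. Summed over all listed genes they were 323932 in the resistant and 299594 in the parental library. Comparison between the libraries also depends on their scaling, which is not stated, and other scalings are given in the closing part. Depth is unknown, so no counting interval is given. The difference of a gene is log2 of (resistant FPKM + 1) over (parental FPKM + 1), which understates the change of genes with low levels. The filter on low values asked for at least 1 FPKM in the resistant or the parental library and was passed by 13937 genes. Calls, higher or lower, needed a fold of 2 or more on this scale. Of the 35 guidance genes, 32 passed, and SEMA6A, SLIT3 and PLXNC1 did not. None was listed at 0 in either library.

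One guidance gene was called higher in the resistant library, the netrin receptor UNC5B, and one was called lower, the semaphorin receptor PLXND1. That is 1 of 32 in each direction, where 4.59% of all genes that passed were called higher and 3.82% were called lower. Over both directions 2 of 32 were called, where 8.41% of all genes were, so at the 2-fold threshold guidance genes were not called more often than the background. The median log2 difference of the 32 genes was 0.03, and that of all genes that passed was 0.04. At a fold of 1.5, 7 of the 32 were higher and 5 were lower, where 14.5% and 12% of all genes were. At that lower threshold both shares of the guidance genes lay above the background, but by few genes. Whether they differ from the background was not tested. The differences were spread over families, and within the class 3 semaphorins, the plexins, the Robo receptors and the UNC5 receptors some members were higher while others were lower.

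**Figure D1:**
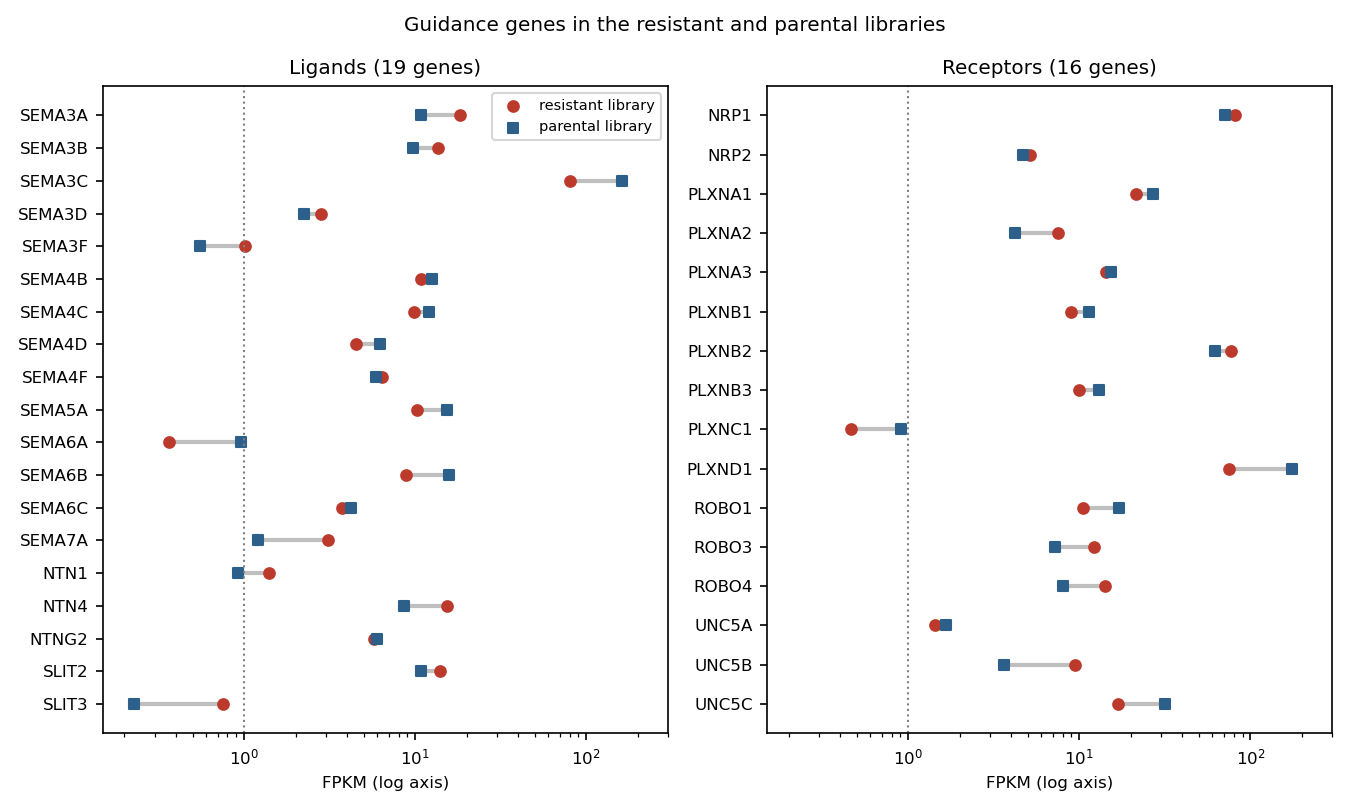
FPKM (log axis) of the 19 ligands (left) and 16 receptors (right) in the resistant library (circles) and the parental library (squares), 1 library each, with a grey line joining the libraries and a dotted line at 1 FPKM. SEMA3C, PLXND1, NRP1 and PLXNB2 lie above the other members in both libraries, and SEMA3C and PLXND1 are lower in the resistant one.

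Among the ligands, the secreted class 3 semaphorins held the most abundant member. SEMA3C (ENSG00000075223, chromosome 7, 80742538 to 80922359, minus strand, GRCh38), which binds neuropilins together with plexin D1 and has been studied in glioma stem cells, had 80.6 FPKM in the resistant and 161 FPKM in the parental library. Its log2 difference was -0.99, just under the call threshold, and 3.95% of all genes that passed were as low or lower. It ranked at percentile 96.0 of all listed genes in the resistant and 98.7 in the parental library. No other ligand exceeded 20 FPKM in either library. SEMA3A, the classical repellent that collapses growth cones through neuropilin-1, had 18.4 FPKM in the resistant and 10.9 in the parental library (log2 difference 0.71).

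The other class 3 members shared the direction of SEMA3A. SEMA3B had 13.7 FPKM in the resistant and 9.71 in the parental library (log2 difference 0.46). SEMA3F, like SEMA3B a candidate tumour suppressor of the short arm of chromosome 3, had 1.01 FPKM in the resistant and 0.551 in the parental library (0.38). SEMA3F passed the filter only through the resistant library, so its direction among passing genes was partly set by the filter. SEMA3D had 2.81 FPKM in the resistant and 2.23 in the parental library (0.24). All 4 class 3 semaphorins other than SEMA3C were thus nominally higher in the resistant library, and none reached the call threshold. Their summed level was 35.9 FPKM in the resistant and 23.4 in the parental library, while that of the whole class was 116 and 184 FPKM in the same order, because SEMA3C alone made up 69.2% of it in the resistant and 87.3% in the parental library. SEMA3C exceeded SEMA3A by 4.39-fold in the resistant and by 14.8-fold in the parental library.

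No membrane-bound semaphorin of classes 4 to 7 was called. Of the 8 that passed, 6 had a negative and 2 a positive log2 difference, where 46.7% of all genes were negative, and their median was -0.24. SEMA6B, a transmembrane ligand of class A plexins, had 8.88 FPKM in the resistant and 15.8 in the parental library (log2 difference -0.77). SEMA5A, which carries thrombospondin repeats and binds plexin B3, had 10.2 FPKM in the resistant and 15.3 in the parental library (-0.53). The class 4 members lay closer together: SEMA4B had 10.8 FPKM in the resistant and 12.6 in the parental library. SEMA4C, a ligand of plexin B2, had 9.87 and SEMA4D, the ligand of plexin B1 also known as CD100, had 4.49 FPKM in the resistant library, against 12.1 and 6.22 in the parental one. SEMA4F differed in sign from these, at 6.44 FPKM in the resistant and 5.93 in the parental library (0.10). SEMA6C had 3.75 FPKM in the resistant and 4.21 in the parental library, and SEMA6A, under the filter, had 0.365 and 0.962.

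SEMA7A, the only class 7 member, which is held in the membrane by a lipid anchor and binds plexin C1 and beta-1 integrin, went the other way. It had 3.11 FPKM in the resistant and 1.21 in the parental library, a plain ratio of 2.58. Its log2 difference was 0.90 with the pseudocount, under the threshold, and 1.37 without one, past it.

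Among the netrins, NTN4, a laminin-like netrin of basement membranes, was the most abundant, with 15.3 FPKM in the resistant and 8.64 in the parental library (log2 difference 0.76). NTN1, the classical ligand of DCC and UNC5 receptors, was at a low level, at percentile 21.2 of all listed genes in the resistant and 13.4 in the parental library, with 1.39 FPKM in the resistant and 0.922 in the parental library (0.32). NTNG2, a netrin G anchored in the membrane, had 5.72 FPKM in the resistant and 5.96 in the parental library (-0.05). Of the Slits, SLIT2 had 13.9 FPKM in the resistant and 10.8 in the parental library (0.33). SLIT3, under the filter, had 0.749 FPKM in the resistant and 0.226 in the parental library, and SLIT2 made up 94.9% of the Slit sum in the resistant and 97.9% in the parental library. None of these 5 genes was called.

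Of the receptors, the neuropilins differed little. NRP1, which binds class 3 semaphorins and VEGF, had 81.0 FPKM in the resistant and 71.5 in the parental library (log2 difference 0.18). NRP2 had 5.15 FPKM in the resistant and 4.70 in the parental library (0.11).

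The plexins held the gene called lower. PLXND1 (ENSG00000004399, chromosome 3, 129555175 to 129606818, minus strand, GRCh38), known from vascular patterning as a receptor of SEMA3E and SEMA3C, had 75.3 FPKM in the resistant and 175 FPKM in the parental library (log2 difference -1.20), and 2.28% of all genes that passed were as low or lower. It was the most abundant plexin in the parental library, at 2.80 times the level of PLXNB2, and in the resistant library the ratio of the 2 was 0.98. PLXNB2, a receptor of SEMA4C and SEMA4D, had 76.8 FPKM in the resistant and 62.3 in the parental library (0.30). PLXND1 made up 35.1% of the plexin sum in the resistant and 56.5% in the parental library. Without it, the other 7 plexins summed to 139 FPKM in the resistant and 134 in the parental library.

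PLXNA2, a receptor of class 6 semaphorins and of class 3 ones with a neuropilin, was the plexin with the highest positive difference, at 7.54 FPKM in the resistant and 4.23 in the parental library (log2 difference 0.71). PLXNA1 had 21.4 FPKM in the resistant and 27.1 in the parental library (-0.33), and PLXNA3 had 14.4 and 15.3 (-0.09). PLXNB1, a receptor of SEMA4D, had 8.94 FPKM in the resistant and 11.4 in the parental library (-0.32). PLXNB3 had 9.98 FPKM in the resistant and 13.1 in the parental library (-0.36). The value of PLXNB3 is uncertain, since 1432 of its 7007 exon bases are shared with SRPK3 on the same strand. PLXNC1, under the filter, had 0.461 FPKM in the resistant and 0.902 in the parental library and shares 177 exon bases with CEP83 on the opposite strand.

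Upstream sequence is printed for PLXND1 and SEMA3C, the receptor and ligand with the largest negative differences, to show in what setting each starts. The window is the 250 bases before the RefSeq gene start (GRCh38.p14, both on the minus strand, written 5′ to 3′ along the gene). For PLXND1 only its first 108 bases, chr3:129606819-129606926, are printed, since the rest lies inside the GENCODE gene, and for SEMA3C all of it, chr7:80922390-80922639. Capitals mark matches, on either strand, to the GC box GGGCGG, the E-box CACGTG, the AP-1 motif TGANTCA, the CCAAT box CCAAT and the TATA box TATAAA, and matches that overlap run together.
PLXND1: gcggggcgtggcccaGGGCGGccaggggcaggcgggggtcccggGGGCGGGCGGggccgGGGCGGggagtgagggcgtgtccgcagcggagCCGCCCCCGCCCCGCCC
SEMA3C: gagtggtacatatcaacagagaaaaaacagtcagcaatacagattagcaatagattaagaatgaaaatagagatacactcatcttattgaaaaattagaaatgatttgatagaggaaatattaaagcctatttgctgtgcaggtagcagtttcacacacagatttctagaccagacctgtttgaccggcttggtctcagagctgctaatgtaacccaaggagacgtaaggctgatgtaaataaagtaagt
The windows differ in composition. That of PLXND1 is 88.8% G and C over its 250 bases, with 41 CpG sites and 9 matches to the GC box, 7 of them in the printed part. That of SEMA3C is 36.4% G and C with 2 CpG sites and none of the 5 motifs. Over all 27305 promoters of the RefSeq table the median was 58.0% with 11 CpG sites, and over the 28 guidance genes with an entry it was 67.2% with 18. The 27305 were not restricted to genes with listed FPKM, as the 28 were, so the 2 sets differ in kind. A GC box stood in 20 of these 28 and in 42.3% of all promoters, and a TATA box in 0 of 28 and in 11.1%. CCAAT stood in 8 of 28 and 33.0%, the E-box in 1 of 28 and 6.49%, and the AP-1 motif in 1 of 28 and 6.60%. Which start site these cells use was not examined.

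The Robo receptors differed in sign. ROBO1, the widely expressed Slit receptor, had 10.5 FPKM in the resistant and 17.1 in the parental library (log2 difference -0.65). ROBO4, known from endothelial cells, had 14.2 FPKM in the resistant and 8.01 in the parental library (0.76). ROBO3, which controls midline crossing of commissural axons, had 12.2 FPKM in the resistant and 7.21 in the parental library (0.68). ROBO3 (124865386 to 124881470, plus strand) and ROBO4 (124883691 to 124898500, minus strand) are neighbours on chromosome 11 (GRCh38). ROBO1 was at 0.74 times the level of ROBO4 in the resistant library and at 2.13 times in the parental one, and none of the 3 was called.

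The UNC5 receptors held the gene called higher. UNC5B (ENSG00000107731, chromosome 10, 71212570 to 71302864, plus strand, GRCh38), a dependence receptor that has been described as a p53 target, had 9.42 FPKM in the resistant and 3.62 in the parental library (log2 difference 1.17), and 2.85% of all genes that passed were as high or higher. UNC5C had 16.9 FPKM in the resistant and 31.9 in the parental library (-0.88), and 78 of its exon bases overlap a listed gene on the opposite strand. UNC5A had 1.44 FPKM in the resistant and 1.66 in the parental library (-0.13). UNC5C stayed the most abundant of the family, at 1.79 times the level of UNC5B in the resistant and 8.82 times in the parental library. UNC5B made up 33.9% of the family's summed level in the resistant and 9.73% in the parental library.

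**Figure D2:**
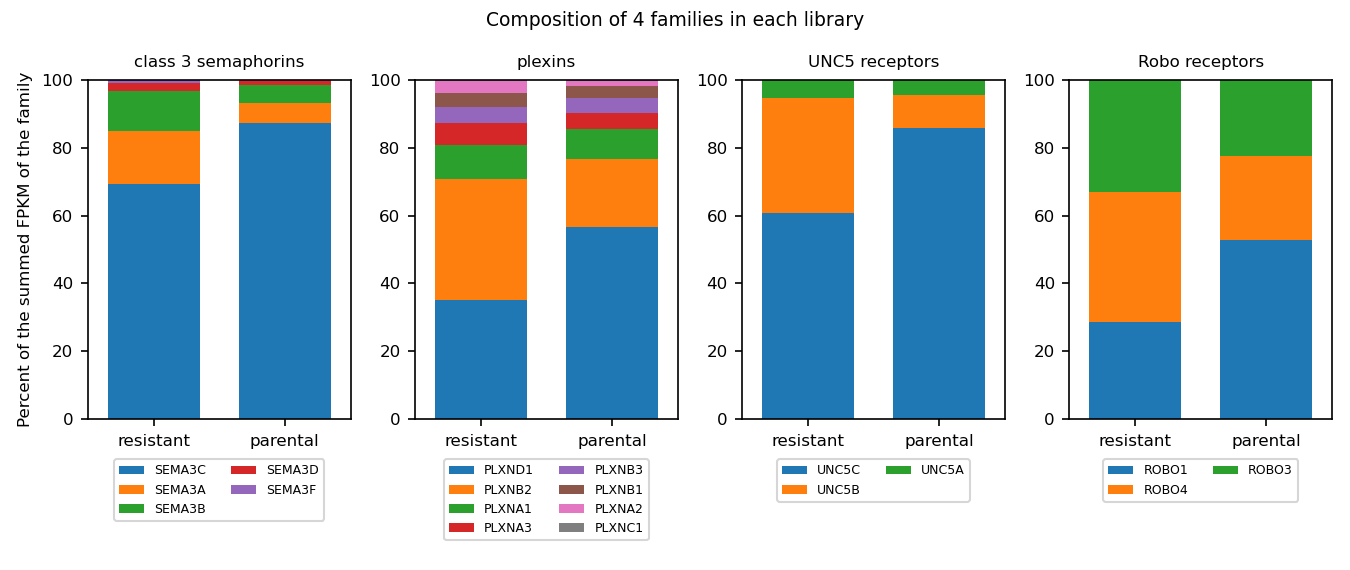
Share of each member in the summed FPKM of its family, in percent, for class 3 semaphorins, plexins, UNC5 and Robo receptors, with the resistant library left of the parental library in each panel. SEMA3C, PLXND1, UNC5C and ROBO1 (lowest segments) take a smaller share in the resistant library, 69.2%, 35.1%, 60.9% and 28.5%, against 87.3%, 56.5%, 85.8% and 52.9% in the parental one.

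Ligands and receptors were then set side by side. Of 17 ligands that passed, none was called, 9 had a positive and 8 a negative log2 difference, and the median was 0.10. Among the 9, SEMA3F and NTN1 passed the filter only through the resistant library, where they were higher. Of 15 receptors that passed, 1 was called in each direction, 7 were positive and 8 negative, and the median was -0.09. Over all genes that passed, 4.59% were called higher and 3.82% lower, 53.3% were positive and the median was 0.04. The signs of both medians depended on the filter, as given in the closing part. The summed level of the 19 ligands was 211 FPKM in the resistant and 285 in the parental library, and that of the 16 receptors was 366 and 455. The ligand sum was 0.58 times the receptor sum in the resistant and 0.63 times in the parental library. Without SEMA3C the other 18 ligands summed to 131 FPKM in the resistant and 124 in the parental library, and without PLXND1 the other 15 receptors summed to 290.3 and 280.0.

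**Figure D3:**
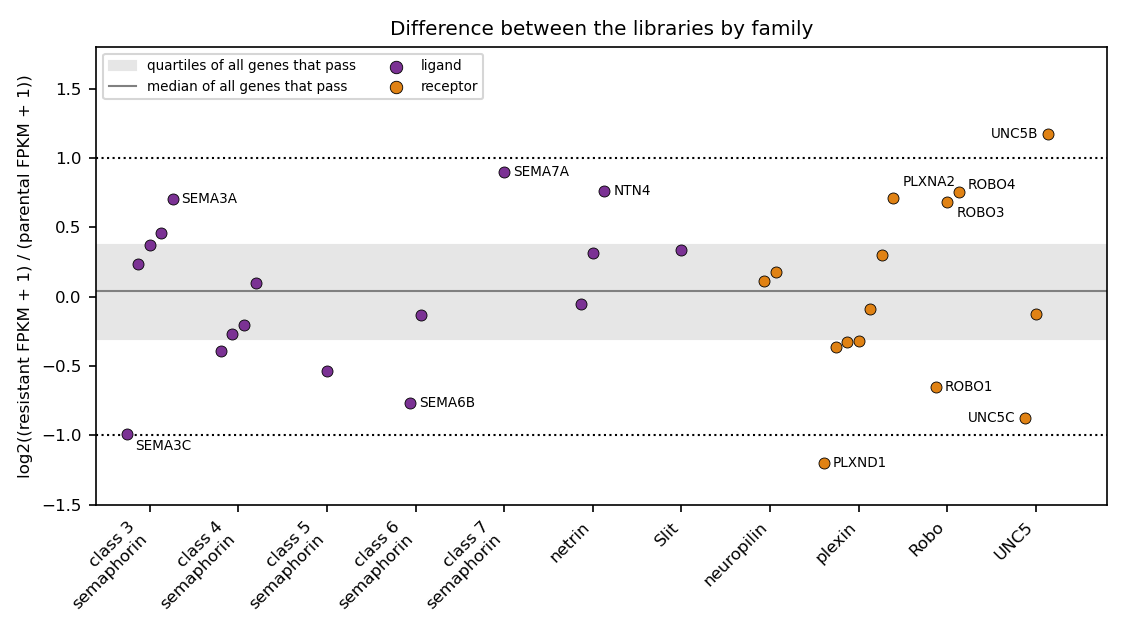
Log2 difference, resistant over parental with a pseudocount of 1 FPKM, of the 32 guidance genes that passed the filter, by family. The grey band is the range between the quartiles of all 13937 genes that passed, the grey line their median and the dotted lines the 2-fold threshold, which UNC5B (1.17) and PLXND1 (-1.20) crossed.

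Known ligand and receptor pairs did not differ in 1 common direction. Of 22 pairs, which share members with each other, 10 had log2 differences of the same sign and 12 of opposite sign. The pairs took in 13 ligands and 14 receptors and are not a full list, since SEMA6B, among others, stands in none. The filter was not applied to pairs, and those with SEMA6A, SLIT3 or PLXNC1, which did not pass it, were all of opposite sign. The larger number of opposite pairs therefore rests on genes under the filter. SEMA3C and its receptor PLXND1 were both negative, with 80.6 and 75.3 FPKM in resistant cells, against 161 and 175 FPKM in parental cells, while the neuropilins that SEMA3C also uses had positive differences of 0.18 and 0.11. SEMA4D at -0.39 had the sign of PLXNB1 at -0.32 and not that of PLXNB2 at 0.30, and SEMA4C at -0.27 also differed in sign from PLXNB2. SEMA3A at 0.71 had the sign of PLXNA2 at 0.71 and not that of PLXNA1 at -0.33. SEMA5A and PLXNB3 were both negative, at -0.53 and -0.36. SLIT2 and ROBO1 had opposite signs, at 0.33 and -0.65, and so had SEMA7A and PLXNC1, at 0.90 and -0.38. NTN1 at 0.32 stood beside UNC5B at 1.17, UNC5A at -0.13 and UNC5C at -0.88.

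Genes that work with these receptors were read from 5 lists, whose counts stand beside 4.59% of all genes that passed called higher and 3.82% called lower. In the order given below, the lists held 13, 23, 20, 18 and 8 genes. Of these, 9, 22, 12, 18 and 5 were listed in the deposited table, and the rest have no value here. Of the 6 co-receptors and plexin partners that passed, 1 was called higher and none lower (median log2 difference 0.07): MET, the receptor kinase that can associate with class B plexins, had 74.6 FPKM in the resistant and 9.38 in the parental library (2.86). L1CAM, a co-receptor of neuropilin-1 for SEMA3A, had 113 FPKM in the resistant and 64.5 in the parental library, and was not called (0.80). Of 22 intracellular mediators of semaphorins and plexins, 3 were called higher and none lower (median -0.04). MICAL2, of a family of enzymes that oxidise actin, had 161 FPKM in the resistant and 56.5 in the parental library (1.49). The scaffold RANBP9 had 23.3 FPKM in the resistant and 10.1 in the parental library (1.14), and the kinase FYN had 30.8 and 14.7 (1.02). The list members with the lowest difference, none called, were FARP1 at 14.1 FPKM in the resistant and 26.7 in the parental library (-0.87) and the collapsin response mediator DPYSL4 at 2.97 and 5.85 (-0.79).

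Of 12 netrin co-receptors and mediators, 1 was called higher and 1 lower, beside the same 4.59% and 3.82% of all genes (median log2 difference -0.17). FLRT3, a membrane protein that binds UNC5 receptors, had 4.81 FPKM in the resistant and 13.8 in the parental library (-1.35). Its relative FLRT2 had 3.93 FPKM in the resistant and 1.40 in the parental library (1.04). NEO1, a netrin receptor related to DCC, had 1.39 FPKM in the resistant and 2.02 in the parental library (-0.34). Of 18 Slit and Robo mediators, 2 were called higher and none lower (median -0.15). SRGAP1, a GTPase-activating protein that binds Robo receptors, had 9.24 FPKM in the resistant and 3.22 in the parental library (1.28), and the ABL-family kinase ABL2 had 62.7 and 27.0 (1.19). SRGAP3, of the family of SRGAP1, had 1.02 FPKM in the resistant and 2.37 in the parental library (-0.74), and SRGAP2 is uncertain because of its near-identical copies. Of 4 VEGF ligands and receptors that passed, 2 were called higher and none lower (median 0.75): VEGFA had 87.3 FPKM in the resistant and 38.6 in the parental library (1.16), and VEGFC had 35.5 and 13.0 (1.38). Both bind neuropilins.

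**Figure D4:**
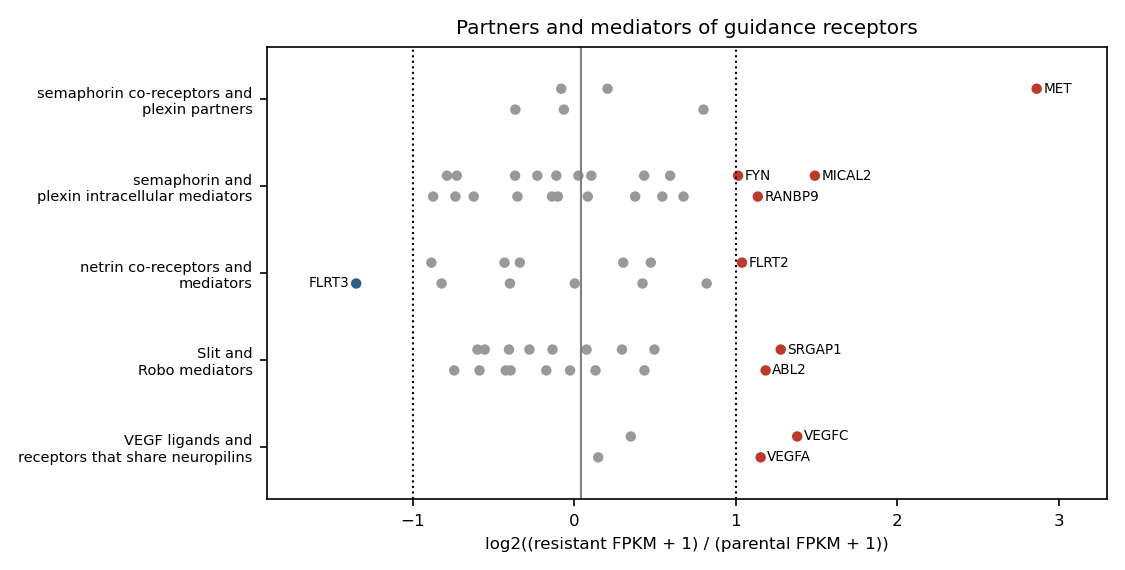
Log2 difference, resistant over parental with a pseudocount of 1 FPKM, of partners and mediators that passed the filter, 1 point per gene and 1 row per list. Coloured and named points are genes called higher (right) or lower (left) at the dotted 2-fold lines, from FLRT3 at -1.35 to MET at 2.86.

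Genes flanking the members with the largest differences were compared after the values were seen, with the nearest 5 listed genes that passed on each side. Their distance was not limited: SEMA3C ends at position 80922359, and SEMA3A, in its flank, starts at 83955777. Of all genes that passed, 4.59% were called higher and 3.82% lower, and 53.3% had a positive difference. Around UNC5B none of 10 was called, and their median log2 difference was 0.16. Around PLXND1 the median was -0.17, and 1 of 10, IFT122, was called lower, at 9.65 FPKM in the resistant and 22.3 in the parental library. Around SEMA3C, which was lower, 9 of 10 flanking genes had a positive difference, SEMA3A and SEMA3D among them, and the median was 0.64. The 2 called higher were KIAA1324L, at 9.71 FPKM in the resistant and 1.24 in the parental library, and CACNA2D1, at 1.16 and 0. CACNA2D1 thus passed the filter only through the resistant library. The median of all 701 genes of chromosome 7 that passed was 0.15. Around SEMA7A the median was -0.02, and 2 of 10, STRA6 (1.05) and CCDC33 (1.63), were called higher. Of the 6 members that passed on chromosome 3, PLXND1, ROBO1, PLXNA1 and PLXNB1 were negative and SEMA3B and SEMA3F positive, where the median of all 780 genes of that chromosome was -0.17.

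Markers of other cell types were read because ROBO4 and PLXND1 are known from endothelium. Of 6 endothelial markers, 3 were listed, and they summed to 1.73 FPKM in the resistant and 11.0 in the parental library. TEK had 1.56 FPKM in the resistant and 9.53 in the parental library, PECAM1 had 0.0225 and 0.921, and CDH5 had 0.141 and 0.583. Of 5 myeloid and lymphoid markers, 2 were listed, summing to 0.919 and 2.52 FPKM in the same order. Of the labelled cell type, no astrocytic marker was listed, and of the glioma and neural stem markers VIM had 804 FPKM in the resistant and 632 in the parental library, while NES had 5.08 and 33.7, SOX2 0.253 and 2.23, and OLIG2 3.42 and 1.43. Of 6 neuronal markers, 2 were listed, TUBB3 at 60.6 FPKM in the resistant and 91.3 in the parental library and MAP2 at 2.29 and 1.76. Of 4 epithelial markers, 3 were listed, with KRT8 at 905 FPKM in the resistant and 213 in the parental library, KRT18 at 702 and 392 and EPCAM at 0.669 and 0.797. No oligodendrocyte marker was listed. The part of these genes' cell types in the guidance results was not tested, and in bulk RNA fewer cells of a type and less RNA per cell cannot be told apart.

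The authors' deposited table also gives q-values of a comparison whose method is not stated and which compares these 2 libraries, not the conditions. In the authors' deposited table, 7 of the 35 guidance genes had a q-value under 0.05, a threshold chosen here, where 9.11% of all 15603 genes had. In the authors' deposited table these were UNC5B (8.74e-05), ROBO4 (0.00775) and SLIT3 (0.0123) on the higher side, 3 of 35 where 5.13% of all genes were. In the authors' deposited table those on the lower side were PLXND1 (4.37e-11), UNC5C (0.00376), ROBO1 (0.00837) and SEMA3C (0.0113), 4 of 35 where 3.98% of all genes were. In the authors' deposited table SEMA7A, at 0.0585, and ROBO3, at 0.0676, lay above that threshold.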

How the data were processed

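Gene expression was measured by RNA sequencing of 1 resistant and 1 parental A172 library, with a stranded mRNA kit per the labels' protocols. The deposited values are FPKM per the file headers, but their scaling, the aligner, the annotation and the use of strand by the authors are not stated in these sources. The table also holds the authors' log2 ratio and the authors' p-values and q-values, per the file headers. That log2 ratio was within 0.001 of log2 of the FPKM ratio for all 15310 genes above 0 in both libraries. The table appears to be filtered, since no gene was below 0.544 FPKM in both libraries.

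Depth is unknown. Low values of single-exon genes, multiplied by length, were set against whole multiples of a step. With the best of many steps, 28.2% of 255 values in the resistant and 26.9% of 294 in the parental library lay within 0.1. A single fixed step would give 20% at random, and the best of many would give more, by an amount not computed. No fragment counts were recovered.

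Differences were computed with a pseudocount of 1 FPKM over genes that reached 1 FPKM in the resistant or the parental library. No p-value was computed. The name rule uses no measured value, but the family, the gene lists and the comparisons were proposed with earlier results of these data known. UNC5 receptors were read as UNC5 followed by 1 letter, and UNC50, an unrelated gene with such a name, was left out. The rule for named genes takes all members and, of the other lists, the called genes, or up to 4 with the largest differences where none was called. L1CAM, NEO1, SRGAP2, SRGAP3, FARP1, DPYSL4 and the flanking genes were singled out after their values were seen. Gene coordinates come from GENCODE release 29 (GRCh38), whose genes lay inside the table's loci for all 35 members and for 96.9% of 15531 matched identifiers. Upstream sequences come from RefSeq (GRCh38.p14), with 28 of 35 members matched by symbol. Some genes of the mediator list are not reported here. Alternatives were other pseudocounts, filters, scalings, thresholds and member rules. Python 3.11.15 with pandas 2.3.3, numpy 2.4.6 and matplotlib 3.10.9 was used.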

Additional observations from a re-analysis of the deposited data

How the results depend on the processing

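UNC5B was called higher and PLXND1 lower under every pseudocount, filter and scaling tried. Smaller pseudocounts can only enlarge a difference and filters leave it unchanged, so of these settings only the scalings could have removed the calls. UNC5B was at 1.11 with upper quartile scaling and 1.13 with median centring, and PLXND1 at -1.28 and -1.24. Neither reached a fold of 4, where 0 members were called in either direction. At 1.5-fold, 7 members were higher and 5 lower. With UNC5 genes left out, 0 were higher. With pseudocounts of 0.1 or 0.5 FPKM, and with none, SEMA7A joined UNC5B, giving 2 higher (log2 difference 1.30, 1.08 and 1.37), while the genes called higher over the whole table numbered 1076, 866 and 1118 in the same order, against 640 with the pseudocount of 1. With upper quartile scaling and with median centring SEMA3C joined PLXND1, giving 2 lower (-1.07 and -1.03), with 619 and 587 genes of the whole table called lower, against 532. These scalings moved the median of all genes by under 0.1, to -0.03 and 0.

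The group medians lay near 0 and changed sign. The median of all members was -0.051 with no filter, -0.069 at 5 FPKM or more, -0.044 with upper quartile scaling, -0.016 with median centring and -0.051 with UNC50 counted in. The ligand median was -0.13 at 5 FPKM or more. The receptor median was 0.011 at 5 FPKM or more, without UNC5 genes and without PLXND1. No direction is therefore given for ligands or receptors as groups. No member that passed changed sign under upper quartile scaling or median centring. Pseudocounts and filters cannot change the sign of a gene's difference, so they do not test it. Counting UNC50, dropping the pseudocount and leaving out SEMA3C or PLXND1 were chosen after seeing the data. No paired analysis was possible because each group held 1 library, which also leaves no replicate to leave out. Genes near 1 FPKM, among them NTN1, SEMA3F, UNC5A and, in the parental library, SEMA7A, are limited most by the unknown depth.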
